A study of Sus scrofa with 6 samples.

Results

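A set of 10 genes that mark the Sertoli cell and its immature state was followed in cultured pig cells with and without melatonin: the transcription factors SOX9, WT1, GATA4, GATA6, DMRT1 and NR5A1, the hormone AMH, the secreted proteins CLU and GDNF, and the filament protein VIM. The list was given by symbol, and 9 of the 10 genes were found by their Ensembl identifiers among the 20731 genes of the deposited table. GATA4 was not analysed here. The 6 libraries hold total RNA of immature Sertoli cells of the pig, and no age, breed or genetic modification is given for them. The MT group is 3 libraries of cells kept with melatonin (MT) at 10 nM for 36 h. The Control group is 3 libraries of the same kind of cell, for which no dose, solvent or time is stated. The labels do not say whether the 3 libraries of a group came from separate animals or cultures, so the spread between them may be technical. Values are FPKM, the fragments of a gene divided by its length and by the size of its library.

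Sertoli cells line the seminiferous tubules and support the germ cells. In the fetal gonad, SOX9 sets their fate together with WT1, the GATA factors and NR5A1, and DMRT1 keeps that fate in place after birth. SOX9, WT1, the GATA factors and NR5A1 drive AMH, the hormone that makes the Müllerian ducts regress. High AMH with keratin marks the Sertoli cell before puberty. CLU and GDNF are secreted products of the cell, and VIM builds its intermediate filaments.

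Of the 9 genes, 6 were at 1 FPKM or more in all 6 libraries: CLU, VIM, AMH, WT1, GATA6 and SOX9. The other 3, GDNF, NR5A1 and DMRT1, were below 1 FPKM in every library. By mean level over the 6 libraries, CLU (3445 FPKM) came first and VIM (2793) next, ranks 6 and 8 of all 20731 genes. The row listed as AMH (12.8 FPKM), which may hold reads of a neighbouring gene, and WT1 (11.05) followed, then GATA6 (3.32), SOX9 (1.91), GDNF (0.47), NR5A1 (0.040) and DMRT1 (0.0073). The ranges over libraries overlapped between CLU and VIM, between AMH and WT1, and between NR5A1 and DMRT1, and did not overlap at the other steps of this order. CLU was above VIM in 6 of 6 libraries, and AMH above WT1 in 5 of 6.

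**Figure D1:**
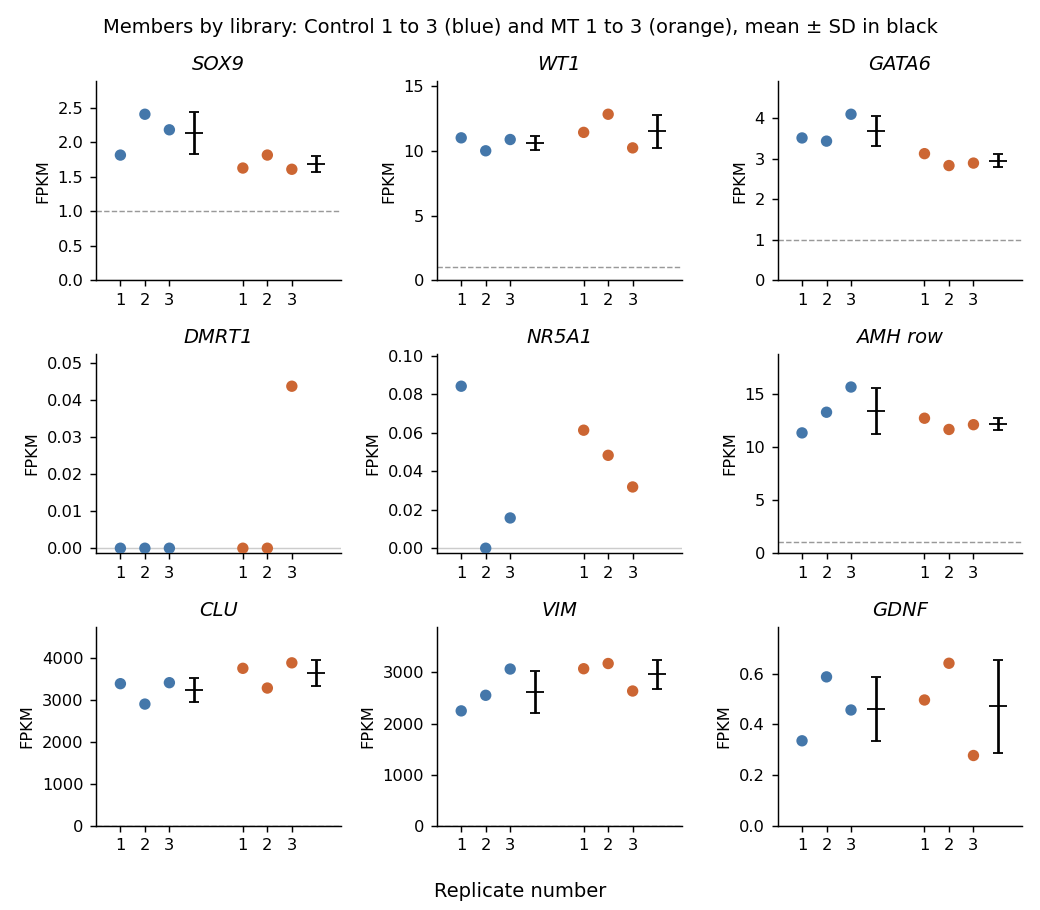
FPKM of each of the 9 genes (vertical axes, linear) in the 3 Control (blue) and 3 MT libraries (orange). The group mean ± SD is in black where no library is at 0. A dashed line marks 1 FPKM in the panels where a library exceeds it, so GDNF, NR5A1 and DMRT1 have none. The groups do not overlap only for GATA6, where the 3 MT libraries (2.84 to 3.13) lie below the 3 Control libraries (3.44 to 4.10).

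No tested gene passed the comparison of MT with Control. Each of the 6 was compared with limma on log2(FPKM + 1) among the 10950 genes that averaged at least 1 FPKM, and 0 of 6 passed a Benjamini-Hochberg adjusted p of 0.05, as did 0 of 10950 genes (0%). At an unadjusted p under 0.05 there were 0 of the 6 genes, against 4.72% of all tested genes. The test by limma voom on the recovered reads also passed 0 of the 6 and 0 of all genes. WT1, CLU and VIM had higher means in MT, and SOX9, GATA6 and AMH lower means. Their median log2 difference was -0.011, beside 0.021 for all tested genes, and without the library Control 3 it turned to 0.051, beside -0.0037. In bulk RNA, fewer cells of a type and less RNA per cell cannot be told apart, so every value below is a level per library.

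Control 3 stood apart from Control 1 and Control 2, and less so from MT 2. Across the tested genes it correlated with Control 1 and Control 2 at 0.938 and 0.939, below its 0.952 to 0.975 with the MT libraries. The other pairs of libraries lay between 0.972 and 0.993. With MT 1 and MT 3, Control 3 correlated at 0.9748 and 0.9712, near the 0.9742 and 0.9715 of Control 2. Library weights estimated by limma gave Control 3 a weight of 0.052, against 4.76 for Control 2, 4.96 for MT 1 and 0.514 to 1.3 for the others. That fit leaned most on Control 2 and MT 1 and passed 57.6% of all tested genes. Among them were SOX9, lower in MT (-0.31), and CLU (0.32) and VIM (0.27), higher in MT. Each difference was also computed without Control 3, where 10.9% of all tested genes passed and 0 of the 6 members (4.28% of all genes rose and 6.62% fell). Library totals recovered from the table were 19579279 to 21500665 reads, and each of the 6 rested on at least 121 reads in each library.

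GATA6, a zinc finger factor that shares target sites with GATA4, was the only tested member whose groups did not overlap. It lies on chromosome 6 from 107282709 to 107314725 (ENSSSCG00000003702; positions are those of the RefSeq gene of that symbol on Sscrofa11.1, here and below). GATA6 stood at 3.52, 3.44 and 4.10 FPKM in Control 1 to 3 and at 3.13, 2.84 and 2.90 in MT 1 to 3. All 3 MT values were below the lowest Control value, as in 4.99% of all tested genes, and 6.24% had all 3 MT values above the Control values, 11.2% in all. The group means were 3.69 ± 0.36 and 2.95 ± 0.16 FPKM (SD, n = 3), a ratio of 0.80. On the log2 scale the difference was -0.24 (SE 0.11, 95% interval -0.51 to 0.024, limma adjusted p 0.9998), which did not pass. Without Control 3, its highest Control value, it was -0.18 (adjusted p 0.17). The gene rested on 183 to 271 reads per library, where counting alone gives an error of 7.39% at the lowest.

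SOX9, the factor that starts Sertoli differentiation downstream of SRY, was the lowest of the detected transcription factors. Its gene (ENSSSCG00000017251) is on chromosome 12 from 8642154 to 8647315. SOX9 stood at 1.81, 2.40 and 2.18 FPKM in Control 1 to 3 and at 1.62, 1.81 and 1.61 in MT 1 to 3. The groups met at 1.81 FPKM, with MT 2 level with Control 1 and the other MT libraries below every Control library. The means were 2.13 ± 0.30 and 1.68 ± 0.11 FPKM (n = 3), a ratio of 0.79. The log2 difference was -0.22 (SE 0.12, 95% interval -0.50 to 0.064, limma adjusted p 0.9998) and did not pass. Without Control 3 it was -0.21 (adjusted p 0.23). Between 121 and 175 reads fell on the gene in a library, so counting error reached 9.09%, against a spread between Control libraries of 14.0% of their mean.

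WT1, the zinc finger factor that the gonad needs to form and that keeps Sertoli identity, was the most abundant transcription factor of the list. It lies on chromosome 2 from 28411467 to 28456007 (ENSSSCG00000013316). WT1 stood at 10.996, 9.996 and 10.87 FPKM in Control 1 to 3 and at 11.4, 12.8 and 10.2 in MT 1 to 3. MT 3 lay within the Control range and the groups overlapped. The log2 difference of 0.10 (SE 0.12) had a 95% interval of -0.18 to 0.38. On this scale the interval runs from 0.881 to 1.304 times the Control level (limma adjusted p 0.9998), and without Control 3 the difference was 0.12 (adjusted p 0.44). Other single libraries moved it more: it was 0.024 without MT 2, 0.060 without Control 2 and 0.17 without MT 3, and did not pass in any of these fits.

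DMRT1 and NR5A1 were at the limit of detection. DMRT1 was listed at 0 in 5 libraries and at 0.044 FPKM in MT 3, a level that 1 read can give. NR5A1, a nuclear receptor also called SF-1 that switches on AMH and steroid enzymes, stood at 0.084, 0 and 0.016 FPKM in Control 1 to 3 and at 0.061, 0.048 and 0.032 in MT 1 to 3. These values came from 5, 0 and 1 reads and from 4, 3 and 2 reads. Both were below the filter on low values. Without that filter their log2 differences were 0.021 for DMRT1 (95% interval -0.028 to 0.070) and 0.020 for NR5A1 (-0.061 to 0.10), each with a limma adjusted p of 0.9997, and at these read numbers a difference between the groups was not detectable.

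AMH carries the immature state in most studies of Sertoli cells, but the row with its identifier (ENSSSCG00000035812) does not measure AMH alone with certainty. The steps of its values correspond to a gene model of 4858 bases or a multiple of that. The whole RefSeq gene AMH spans only 2752 bases, introns included, on chromosome 2 from 76415564 to 76418315. Such an excess over the span was found in 207 of 8894 tested genes (2.33%), and in none of the other 8 members with values. The gene SF3A2, a splicing factor made in all cells, ends 662 bases before AMH begins, and JSRP1 begins 192 bases after AMH ends. SF3A2 was not analysed here. What share of the reads in this row comes from AMH was not tested.

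The AMH row stood at 11.3, 13.3 and 15.6 FPKM in Control 1 to 3 and at 12.7, 11.6 and 12.1 in MT 1 to 3. The 3 MT values lay inside the range of the Control values, which spread by 16.1% of their mean against 4.37% in MT. The log2 difference was -0.12 (SE 0.14, 95% interval -0.45 to 0.20, limma adjusted p 0.9998). Control 3 was the highest library, 0.33 above the mean of Control 1 and Control 2 on the log2 scale, and without it the difference was -0.013 (adjusted p 0.93). Control 1 was the lowest library, and without it the difference was -0.23 (adjusted p 0.997).

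CLU encodes clusterin, a chaperone that Sertoli cells secrete in bulk into the tubule fluid. It was the most abundant gene of the list, on chromosome 14 from 11336585 to 11352569 (ENSSSCG00000009668), and took 0.60% to 0.80% of all reads of a library. CLU stood at 3396, 2908 and 3420 FPKM in Control 1 to 3 and at 3763, 3292 and 3894 in MT 1 to 3. MT 1 and MT 3 were above every Control library and MT 2 was within the Control range. The log2 difference was 0.17 (SE 0.12, 95% interval -0.12 to 0.46, limma adjusted p 0.9998), and 0.21 without Control 3 (adjusted p 0.19). Without Control 2, its lowest library, it was 0.095.

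VIM encodes vimentin, whose filaments reach from the nucleus toward the germ cells. Its gene lies on chromosome 10 from 43516441 to 43526172 (ENSSSCG00000011033). VIM stood at 2249, 2554 and 3067 FPKM in Control 1 to 3 and at 3074, 3175 and 2638 in MT 1 to 3. Control 3 was level with MT 1 and above MT 3, while Control 1 and Control 2 were below every MT library. The log2 difference was 0.18 (SE 0.15, 95% interval -0.17 to 0.54, limma adjusted p 0.9998), and -0.0030 when the libraries were quantile normalised. Without Control 3 it was 0.30 (SE 0.10, unadjusted p 0.023, adjusted p 0.090), which did not pass, while 36.2% of all tested genes had an unadjusted p under 0.05 in that fit. By voom on recovered reads without Control 3 it rose (0.30, limma adjusted p 0.040), as 21.7% of all tested genes passed there. Without Control 1, its lowest library, the limma difference was 0.077 (adjusted p 0.997).

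GDNF, the growth factor by which Sertoli cells keep spermatogonial stem cells renewing, was low in both groups, whose ranges overlapped. It lies on chromosome 16 from 22936602 to 22965929 (ENSSSCG00000038727). GDNF stood at 0.34, 0.59 and 0.46 FPKM in Control 1 to 3 and at 0.50, 0.64 and 0.28 in MT 1 to 3. The highest and the lowest value were both MT libraries. The means were 0.46 ± 0.13 and 0.47 ± 0.18 FPKM (n = 3) from 21 to 48 reads per library, and the counting error at 21 reads is 21.8%. With no filter on low values its log2 difference was 0.0075 (95% interval -0.27 to 0.28, limma adjusted p 0.9997).

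**Figure D2:**
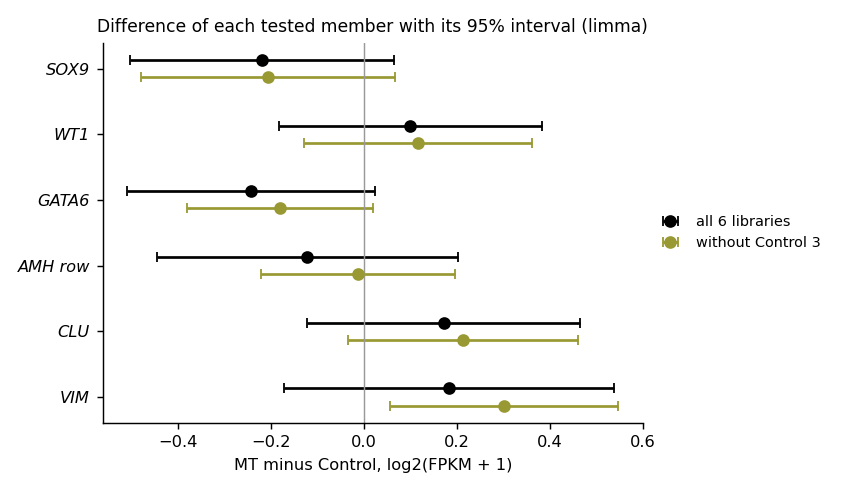
MT minus Control difference on the log2(FPKM + 1) scale (horizontal axis) for the 6 tested genes, with 95% intervals from limma, over all 6 libraries (black) and without Control 3 (olive). All 6 intervals over 6 libraries include 0, and without Control 3 the interval of VIM (0.055 to 0.55) does not, though its adjusted p is 0.090.

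Set among all tested genes, 5 of the 6 differences lay outside the quartiles, which were at -0.076 and 0.12 on the log2 scale over the 10950 genes. By definition the quartiles leave as many genes outside as between them, and 0 of the 6 members had an unadjusted p under 0.05 in limma. GATA6, SOX9 and the AMH row were below the lower one, CLU and VIM above the upper one, and WT1 (0.10) between them. The absolute difference of GATA6 exceeded that of 86.2% of tested genes, that of SOX9 83.3%, VIM 76.3%, CLU 73.6%, the AMH row 59.0% and WT1 50.4%. The scale understates changes of low genes, so the shares of low and high members are not on equal terms.

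**Figure D3:**
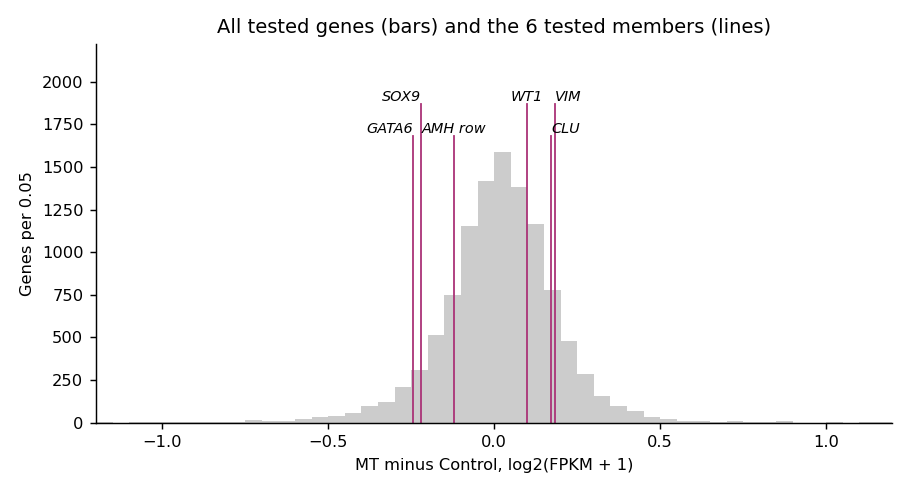
Number of tested genes (vertical axis) in each 0.05 step of the MT minus Control difference in log2(FPKM + 1) (horizontal axis, drawn from -1.2 to 1.2), with the 6 tested members as lines. GATA6 (-0.24), SOX9 (-0.22) and the AMH row (-0.12) lie below the lower quartile of all genes and CLU (0.17) and VIM (0.18) above the upper one, with WT1 (0.10) between them.

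The label of the cells was compared with 17 Sertoli markers, the 10 genes among them, of which 14 had values here. Of these, 8 were at a mean of 1 FPKM or more, and beside the 6 above they were KRT18, a keratin of immature Sertoli cells, and INHBB, the beta B subunit of inhibin and activin. The 8 include the AMH row, which may hold reads of a neighbouring gene. KRT18 ranged from 76.7 to 89.96 FPKM and INHBB from 3.26 to 5.06. Of the 6 below 1 FPKM, 5 stayed under 0.1 FPKM in every library: DMRT1, NR5A1, INHA, the alpha subunit of inhibin, DHH, the hedgehog ligand of the tubule, and KITLG, the ligand that germ cells read through KIT. FSHR, CLDN11 and GATA4 were not analysed here. So the abundant products CLU, VIM and KRT18 and the factor WT1 were present, SOX9 was near 2 FPKM, and DMRT1, NR5A1, INHA, DHH and KITLG, which also define the cell type, were close to 0. Whether CLU, VIM and KRT18 came only from Sertoli cells was not tested, and the epithelial markers CDH1 and EPCAM were present as well.

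Markers of other cells were mixed. For Leydig cells 4 of 7 listed markers had values, with STAR at 2.12 to 2.68 FPKM and CYP11A1 at 1.46 to 2.47, while CYP17A1 stayed at or below 0.027, and the summed level was 3.93 to 4.39 FPKM in Control and 3.74 to 4.87 in MT. For peritubular myoid cells all 7 had values and the sum was 171.4 to 280.0 FPKM in Control and 170.5 to 203.9 in MT. Most of it was TAGLN, while ACTA2 and MYH11, which define these cells, stayed at or below 0.21 and 0.041 FPKM. The germ cell marker DDX4 stayed at or below 0.035 FPKM and UCHL1 between 0.66 and 1.35, with 2 of 10 listed markers valued and sums of 0.67 to 1.35 in Control and 1.02 to 1.25 in MT. Leukocyte markers summed to 9.80 to 12.4 FPKM in Control and 11.9 to 13.4 in MT over 5 of 7, carried by CD14 and CD68, with CD163 at or below 0.0064. CD68 was the only tested marker of another cell type whose groups did not overlap, as in 11.2% of all tested genes. It stood at 3.18 to 4.14 FPKM in Control and 4.50 to 5.30 in MT (log2 difference 0.30, limma adjusted p 0.9998), and did not pass. Endothelial markers summed to at most 0.32 FPKM over 3 of 6. For fibroblasts 5 of 7 had values, COL3A1 stood at 11.8 to 18.2 FPKM, DCN and PDGFRB stayed at or below 0.025 and 0.0083, and the sums were 16.0 to 18.2 and 14.6 to 23.2. The epithelial markers CDH1 (7.36 to 11.0 FPKM) and EPCAM (2.64 to 4.05) were present in every library, with sums of 12.9 to 14.8 and 11.0 to 14.7. The ranges of every summed level overlapped between Control and MT, and their part in the values of the 9 genes was not tested.

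**Figure D4:**
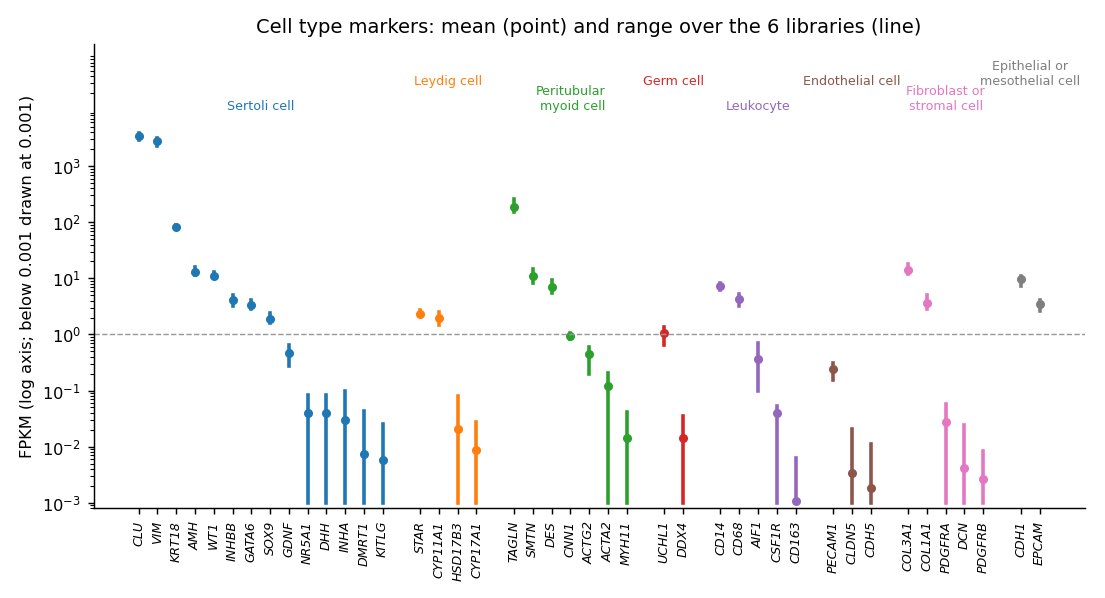
FPKM on a log axis (vertical; values below 0.001 drawn at 0.001) of the Sertoli markers and of markers of 7 other cell types, as the mean (point) and the range over the 6 libraries (line), with 1 FPKM as a dashed line. CLU (3445 FPKM) and VIM (2793) stand far above the other markers, and NR5A1, DHH, INHA, DMRT1 and KITLG below 0.1, beside ACTA2, MYH11, DDX4, CD163 and PDGFRB, which are also low.

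Genes that work with the 9 members were taken from 9 lists of 125 genes, of which 95 had values and 75 were tested. None of the 75 passed in limma over all tested genes, and 42 had higher and 33 lower means in MT. An unadjusted p under 0.05 was found for 5 of the 75, beside 4.72% of all tested genes. Groups did not overlap for 8 of the 75 (10.7%, beside 11.2% of all tested genes). Without Control 3, 6 of the 75 passed (8%, beside 10.9% of all tested genes): VLDLR and SPARC rose and LMNB1, CP, SMAD5 and WTAP fell.

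Among partners of the fate factors, 12 of 20 listed genes were tested, with 0 called and a median log2 difference of 0.12 (0.17 without Control 3). FGF9, the ligand that keeps SOX9 on in the fetal testis, stood at 1.48, 1.73 and 1.47 FPKM in Control 1 to 3 and at 2.16, 2.48 and 2.76 in MT 1 to 3. Every MT library was above every Control library, and the log2 difference was 0.44 (SE 0.12, unadjusted p 0.0081, limma adjusted p 0.74, and without Control 3 adjusted p 0.055). FGF9 rested on 46 to 91 reads per library, with a counting error of 14.7% at the lowest. EMX2, a homeobox factor of the early gonad, was the most abundant of the tested partners at 43.4 to 58.3 FPKM, with overlapping groups. Of 12 genes of the ovarian counterpart programme 5 were tested, 0 were called and the median was -0.022 (-0.049 without Control 3). RSPO1, which promotes the granulosa cell fate, had 2.72, 3.87 and 4.36 FPKM in Control 1 to 3 and 2.83, 3.14 and 1.57 in MT 1 to 3, and did not pass.

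For the immature state, 6 of 11 listed markers were tested, with 0 called, 5 higher and 1 lower, and a median log2 difference of 0.080 that became 0.17 without Control 3. KRT8, the keratin partner of KRT18, stood at 435.8 ± 68.6 FPKM in the Control libraries and 460.2 ± 31.9 under MT (n = 3). CCND2, a cyclin of dividing cells, averaged 17.9 ± 0.74 and 19.3 ± 0.66. For the mature state, 6 of 14 listed markers were tested, with 0 called, 5 higher and 1 lower, and a median of 0.040 that turned to -0.083 without Control 3. CDKN1B, an inhibitor of cell division, had 36.0, 32.1 and 19.2 FPKM in Control 1 to 3 and 26.2, 32.7 and 26.5 in MT 1 to 3, so its log2 difference of 0.011 became -0.25 without Control 3 (adjusted p 0.15).

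Downstream of AMH, the type 2 receptor AMHR2 stayed at or below 0.11 FPKM. Of the 14 genes listed for its receptors and the SMAD pathway 13 were tested, with 0 called and a median of 0.0050 (0.038 without Control 3). The SMAD target ID3 averaged 411.7 ± 77.9 FPKM over the Control libraries and 380.2 ± 28.5 over those of MT, and ID1 averaged 165.2 ± 51.1 and 144.2 ± 12.2 (n = 3). SMAD5, a signal carrier of this pathway, had a log2 difference of -0.12 over all 6 libraries (limma adjusted p 0.9998) and did not pass. It fell without Control 3 (-0.50, limma adjusted p 0.041), and Control 3 lay 1.13 below Control 1 and Control 2 on the log2 scale for this gene.

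Around GDNF, 8 of 14 listed receptors and niche factors were tested, with 0 called and a median of -0.029 (-0.00037 without Control 3). RET, the signalling receptor for GDNF, averaged 2.88 ± 0.58 FPKM without and 3.05 ± 0.33 with melatonin. LIF, a cytokine of the stem cell niche, stood at 15.7, 21.6 and 24.4 FPKM in Control 1 to 3 and at 14.4, 15.9 and 11.3 in MT 1 to 3. MT 2 was just above Control 1 and the other MT libraries were below every Control library (log2 difference -0.53, SE 0.19, unadjusted p 0.031, limma adjusted p 0.96).

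Beside VIM, all 10 filament and linker genes with values were tested, with 0 called and a median of 0.063 (0.17 without Control 3). LMNB1, the B-type lamin of the nuclear envelope, stood at 65.0, 65.2 and 74.1 FPKM in Control 1 to 3 and at 49.3, 55.8 and 47.6 in MT 1 to 3. All 3 MT libraries were below all 3 Control libraries (log2 difference -0.41, SE 0.11, limma adjusted p 0.74), and without Control 3 it fell (-0.35, adjusted p 0.045). NES, another intermediate filament protein, also had lower values in every MT library (2.92 to 3.09 against 3.30 to 3.64 FPKM) and did not pass in either fit. In this list 2 of the 10 genes had all MT values below the Control values, beside 4.99% of all tested genes. All MT values were above in 1 of the 10, beside 6.24% of all tested genes. Whether so short a list differs from all genes was not tested.

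Beside CLU, 11 of 16 listed receptors and secreted proteins were tested, with 0 called and a median of -0.025 that turned to 0.065 without Control 3. VLDLR, a lipoprotein receptor that also binds clusterin, stood at 9.69, 9.14 and 9.41 FPKM in Control 1 to 3 and at 12.6, 13.6 and 11.8 in MT 1 to 3. Every MT library was above every Control library (log2 difference 0.39, SE 0.10, limma adjusted p 0.74), and without Control 3 it rose (0.39, adjusted p 0.040). LRP8, a related receptor, had values of 8.33 to 8.51 FPKM in MT, all below the 9.37 to 12.8 of Control, and did not pass in either fit. CP, the copper protein ceruloplasmin, had 124.8, 107.5 and 55.7 FPKM in Control 1 to 3 and 67.2, 70.8 and 76.6 in MT 1 to 3, with Control 3 the lowest of all 6, and its log2 difference went from -0.34 to -0.69 without that library (limma adjusted p 0.9998 and 0.020). SPARC, a matrix protein, had a log2 difference of 0.30 over all 6 libraries (limma adjusted p 0.9998) and did not pass. Control 3 stood at 600.6 FPKM, inside the MT range of 575.0 to 634.7. Without that library the difference was 0.44 (limma adjusted p 0.026). SPP1, or osteopontin, was the most abundant of these genes at 6837 to 9583 FPKM, above CLU, with overlapping groups.

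Among 17 relatives and named partners of the transcription factors 6 were tested, with 0 called and a median of 0.077 (0.14 without Control 3). GATA2 (1.34 to 2.50 FPKM) and GATA3 (1.43 to 2.19) were near the level of SOX9, and GATA1 and GATA5 stayed at or below 0.13 and 0.21. WTAP, a part of the RNA methylation machinery that binds WT1, averaged 17.4 ± 2.46 FPKM without and 14.6 ± 0.66 with melatonin. Its log2 difference over all 6 libraries was -0.23 (limma adjusted p 0.9998), which did not pass. Control 3 stood at 14.62 FPKM, inside the MT range of 13.97 to 15.28. Without that library the difference was -0.34 (limma adjusted p 0.038).

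The genes most like each member in pattern were taken by Pearson's r of log2(FPKM + 1) over the 6 libraries among 9482 other tested genes with a symbol. With 6 libraries high values of r are common, so they are given as a description. For SOX9 they included GDF6 and PFKFB3 (r of 0.984 and 0.981), for GATA6 CRELD2, RASL11B and EBP (0.984 to 0.991), and for WT1 AXIN2, TAF15 and DAPP1 (0.902 to 0.922). For the AMH row they were BYSL, MPDU1 and NFKBIE (0.983 to 0.986), for CLU C1orf116, HSF2BP and EZH1 (0.987 to 0.994), and for VIM TATDN2, SLC7A1 and AP1S1 (0.984 to 0.990). An r over 0.95 was reached by 71 genes for the AMH row, 50 for GATA6, 40 for CLU, 28 for VIM, 7 for SOX9 and 0 for WT1.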

How the data were processed

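Total RNA of 6 libraries was sequenced, 3 Control and 3 MT, grouped by sample title. The deposited table gives FPKM, scaled by the authors to gene length and library size, 1 column per library. Sscrofa11.1 is the build, and HISAT2, featureCounts, Subread and bcl2fastq are the tools, in the submitters' processing notes. Versions, annotation release, strand and filters are not given in the sources used, so reads of overlapping genes on opposite strands cannot be told apart.

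Symbols were matched for 13173 of 20731 Ensembl identifiers, and coordinates by symbol to RefSeq on Sscrofa11.1. Genes averaging at least 1 FPKM over the 6 libraries were compared on log2(FPKM + 1), which understates changes of low genes, with limma 3.58.1 in R 4.3.3 (lmFit, eBayes with trend, two-sided, with group alone in the model, Benjamini-Hochberg over 10950 genes, threshold 0.05). Python 3.11.15, numpy 2.4.6, pandas 2.3.3 and matplotlib 3.10.9 did the rest. Library totals and gene lengths were recovered as whole numbers from the steps of the values, and 100% of tested genes gave whole reads within 0.002. Where the 6 read numbers of a gene share a divisor, length and reads come out too small by it.

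The model was tested on simulated data with changes of 2-fold or more, the same spread for every gene and no library set apart as Control 3 was. It recovered most of the changed genes, with more false calls than the nominal share. The excess was largest where genes with few reads were included. It remained among genes with at least 10 reads on average, the class of the tested members. Smaller changes, such as those of the members, were not simulated. Alternatives were other pseudocounts, filters, scalings, variance models, library weights, a replicate block, voom on recovered reads and leaving out each library. The genes named were the 10 members and, per list, up to 2 of smallest p in each direction and up to 2 of highest level. List genes past the threshold without Control 3, and list members given only by their level, were named after their values were seen. Some genes that fall under this rule are not reported here. Members and lists were chosen with earlier results of these data known.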

Additional observations from a re-analysis of the deposited data

How the results depend on the processing

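Over all 6 libraries, 0 of 10950 genes and 0 of 6 members passed in limma under every pseudocount, filter, scaling and variance model tried, and by voom on recovered reads. Array weights gave Control 3 a weight of 0.052 and leaned most on Control 2 (4.76) and MT 1 (4.96). They passed 6309 genes (57.6%) and 3 members in limma: SOX9 (-0.31, adjusted p 0.011), CLU (0.32, 0.0051) and VIM (0.27, 0.013). Leaving out 1 library passed 0 to 1194 genes, with 1194 reached only without Control 3, and 0 members each time. Chosen after seeing the data, a mean of at least 10 reads without Control 3 passed 1692 genes, and voom without Control 3 passed 2372 genes (21.7%) and 1 member, VIM (0.30, adjusted p 0.040). The difference of VIM was -0.0030 after quantile normalisation, the only change of sign among 19 alternatives for each of the 6 members; the cause was not tested. Over these alternatives SOX9 ranged from -0.33 to -0.16, GATA6 from -0.32 to -0.13, the AMH row from -0.23 to -0.013, WT1 from 0.024 to 0.17 and CLU from 0.087 to 0.32. With the replicate block, 0 genes and 0 members passed. The replicate numbers were not taken as pairs, since no label says that they pair libraries. Same-numbered libraries had correlations of deviations of -0.44, 0.63 and 0.34, and not every library correlated best with its own number. As deviations from a mean of 3 libraries, with Control 3 apart, these values cannot decide the pairing. Depth limits GDNF, NR5A1 and DMRT1, and the gene model limits AMH.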
